A study of Bos taurus with 8 samples.

Results

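The keratin, desmosome and cornified epithelium genes are the genes that give an epithelium its filaments, its spot welds and, in a squamous epithelium, its horny surface. They were taken by the gene name that the array files give: every keratin (KRT followed by a number), desmoglein, desmocollin and plakophilin, together with DSP, JUP, IVL, LOR, SBSN, A2ML1, GJB2, GJB6 and TP63. This gave 67 genes with 1 probe each, out of 15008 probes on the array. The rule uses gene names alone. Of the 67 genes, 47 are keratins, 13 are desmosomal, 4 belong to the cornified surface, 2 are connexins and 1 is a transcription factor.

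Keratins build the intermediate filaments of epithelial cells as pairs of a type I and a type II chain. Simple, single-layered epithelia such as hepatocytes and bile ducts carry KRT8 and KRT18, and bile ducts add KRT7 and KRT19, whereas stratified squamous epithelia such as the lining of the rumen carry KRT5 and KRT14 in the basal layer, under the transcription factor p63, and other pairs above it. Desmosomes tie the filaments of neighbouring cells together through cadherins (desmogleins and desmocollins) and plaque proteins. Involucrin and loricrin are cross-linked under the membrane of squamous cells as they cornify.

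The samples came from Holstein bull cattle aged 5 to 6 months, from a trial of 11 fistulated animals in a replicated Latin square that were moved from hay to high grain, which induces subacute ruminal acidosis (SARA), and then back to hay. Egg yolk containing antibody against bacterial lipopolysaccharide went into the rumen through the fistula daily for 14 days, in an amount that changed by period, 0 g being the control. Animals 19, 20, 23 and 24 gave 2 arrays each, one at each of 0 g and 4 g per head daily, sampled 2 days after the challenge, so that all 8 arrays carry the challenge and each dose has 4 arrays. The tissue label is liver, but the RNA extraction text reads rumen epithelium, and the order of an animal's periods was not given. The genes above bear on that conflict, and the dose comparison asks whether the antibody moved them.

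Cy3-labelled RNA was hybridised to 60-base probes on a 1-colour Agilent array. A level below is the log2 of a probe's processed signal minus the log2 of the 75th percentile of its array, so a level of 0 is that of a probe at the percentile itself. Well above background is the scanner software's own flag for a measured spot, and a probe so flagged is called read. Levels are compared for 1 probe across arrays and never between probes. The 75th percentile was 121.3 on the 0 g array of animal 20 and 121.8 on the 4 g array of animal 19, against 210.9 to 300.3 on the others, and 64.4% to 80.4% of all probes were well above background. On those 2 dim arrays the lowest level well above background was −4.63 and −4.79, against −6.10 to −5.57 on the others, so a probe at the background reads higher there. On 54 probes the arrays fell into 2 separate levels, in 38 of them parted by the 2 dim arrays. On 14 the levels agreed within animals 19 and 20. Of these 14, 5 also agreed within animals 23 and 24, while on 8 the 2 arrays of animal 23 lay on different sides, as did those of animal 24, in 7 cases with the same-dose arrays of those 2 animals together. Whether the arrays of animals 23 and 24 carry the right animal number was not tested. The block, the differences by animal and the counts of animals below take the numbers as labelled, and dose values are also given for animals 19 and 20 alone.

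The probe sequences set out here show where member probes resemble each other, since keratins are alike and a reading can be shared between near copies. In each pair below a stretch of 30 bases is aligned, written 5′ to 3′ from the array files, and capitals mark the bases at which the 2 probes differ. For KRT6B and KRT6C, neighbours on chromosome 5, 26 of the 30 bases match.
KRT6B: aagtgactGgttctTtgatgtacaggGtCt
KRT6C: aagtgactAgttctAtgatgtacaggAtTt
For KRT14 and KRT17, type I keratins on chromosome 19, 28 of the 30 match.
KRT14: aggatgccgaAgactggttcttCagcaaga
KRT17: aggatgccgaGgactggttcttTagcaaga
Over their whole shared length the first pair matched at 84.1% of 44 bases and the second at 83.3% of 42. No other pair of member probes passed 70.0% over at least 30 bases. Probes were compared with other probes alone and not with transcripts. Sharing between genes whose probes lie at different positions would therefore not be seen. KRT6B and KRT6C, and KRT14 and KRT17, are therefore reported as readings in which a part may come from the other gene; how large that part is was not tested.

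The probes below are those of textbook markers of the 2 named tissues, the simple keratin pair, the basal squamous keratin and the p63 gene, followed by connexin 30, which stood out on 1 array. They are shown whole, without capitals, and the positions are those of the probes on UMD 3.1 (bosTau6) as the array files give them.
KRT8, chr5:27213808-27213867, plus strand: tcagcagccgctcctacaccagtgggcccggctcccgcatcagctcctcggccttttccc
KRT18, chr5:27172581-27172826, minus strand, spread over 246 bases of the genome: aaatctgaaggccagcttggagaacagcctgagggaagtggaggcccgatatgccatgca
KRT14, chr19:42430195-42430226, minus strand, where 32 bases of the probe are placed: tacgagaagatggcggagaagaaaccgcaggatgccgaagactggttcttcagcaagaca
TP63, chr1:78013501-78013560, minus strand: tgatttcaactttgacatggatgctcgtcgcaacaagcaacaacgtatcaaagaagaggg
GJB6, chr12:36317641-36317700, plus strand: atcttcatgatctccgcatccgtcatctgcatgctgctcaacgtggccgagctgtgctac
The array files give no exon or untranslated region for a probe, and none was used here. The base composition of the member probes did not set them apart: the median GC content was 45.0% for the 67 members and 45.0% for all probes. It was 49.2% for members read on every array and 44.2% for those read on none. The letters AATAAA, the common polyadenylation signal, stood in 10 of the 67 probes (14.9%), searched on the probe strand, against 9.5% of all probes.

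On each array most of these genes were not well above background. With a looser flag, for a positive and significant spot, 39 to 54 of the 67 passed per array, and no share of all probes is given for it. Of the 67, 18 were well above background on all 8 arrays (26.9%, against 61.6% of all 15008 probes), 28 on none (41.8%, against 16.1% of all probes) and 21 on some. The number per array ran from 22 (0 g, animal 20) to 32 (0 g, animal 19), and was 25 and 26 on the 4 g arrays of animals 19 and 20, 31 and 25 on the 0 g arrays of animals 23 and 24, and 27 and 24 on their 4 g arrays. On every array the members' share, 32.8% to 47.8%, lay below that of all probes.

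**Figure D1:**
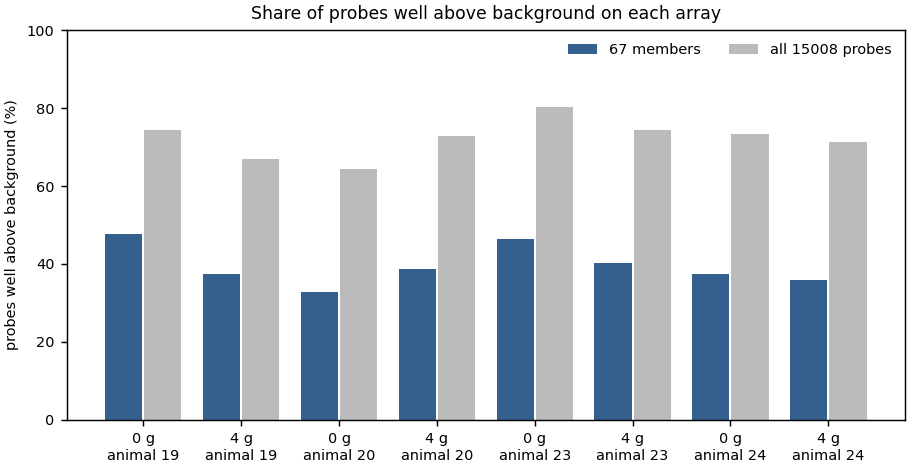
Share of probes well above background (%, y axis) on each of the 8 arrays (x axis), for the 67 members (dark bars) and for all 15008 probes (grey bars). The members' bars lie between 32.8% and 47.8%, and those of all probes between 64.4% and 80.4%.

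**Figure D2:**
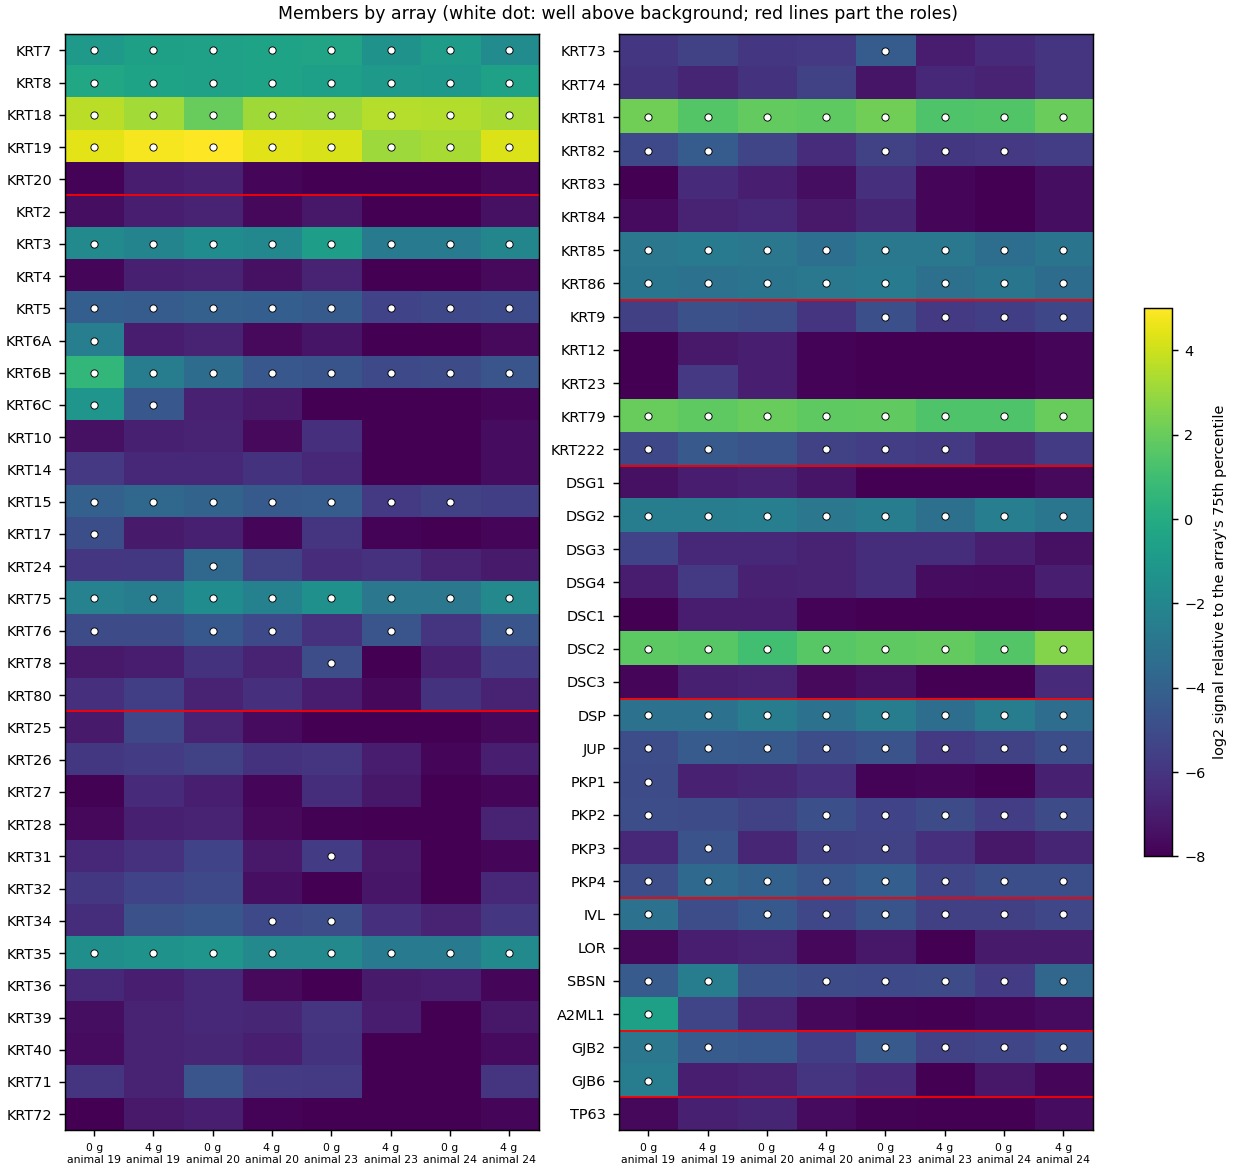
Level of each of the 67 members (rows, in the order of their roles, parted by red lines) on each of the 8 arrays (columns), as log2 signal relative to the array's 75th percentile. A white dot marks a probe well above background. KRT7, KRT8, KRT18 and KRT19 carry a dot on every array, TP63, KRT14, DSG1 and LOR on none, and KRT6A, KRT6B, KRT6C, A2ML1 and GJB6 are brightest on the first column.

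The simple keratins were the group read most fully: 4 of 5 were well above background on all 8 arrays. KRT18, the type I partner of KRT8 in hepatocytes, stood at 3.66, 1.97, 3.1 and 3.49 on the 0 g arrays of animals 19, 20, 23 and 24, and at 3.21, 3.15, 3.54 and 3.30 on their 4 g arrays. KRT8, the type II partner, stood at −0.21, −0.54, −0.65 and −1.05 at 0 g and at −0.44, −0.47, −0.95 and −0.54 at 4 g. Both were steady, apart from KRT18 on the dim 0 g array of animal 20, and the doses overlapped.

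KRT19, a bile duct keratin in liver, stood at 4.45, 5.34, 4.19 and 3.31 at 0 g (animals 19, 20, 23 and 24 in that order, here and below) and at 4.84, 4.42, 3.09 and 4.33 at 4 g. KRT7, the other bile duct keratin, stood at −1.04, −0.58, −0.42 and −0.86 at 0 g and at −0.63, −0.48, −1.32 and −1.73 at 4 g. Both were present on every array with overlapping doses, and KRT7 was lowest on the 4 g arrays of animals 23 and 24. KRT20, which marks gut lining, was not well above background on any array (−8.29 to −6.82).

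The stratified keratins were read in part. Of 16 genes, 4 were well above background on all arrays (KRT3, KRT5, KRT6B and KRT75), 7 on some and 5 on none. KRT5, the basal squamous type II keratin, was dim but measured throughout, at −4.14, −4.00, −4.34 and −5.18 at 0 g and −4.20, −4.12, −5.40 and −5.09 at 4 g. KRT14, its partner in basal cells, was not well above background on any array, at −5.82, −6.55, −6.50 and −8.09 at 0 g and −6.55, −6.11, −8.06 and −7.58 at 4 g. Of this pair, KRT5 was thus read on all 8 arrays and KRT14 on none. KRT15, another type I stratified keratin, was well above background on 7 arrays, with levels from −5.77 to −3.60. KRT76 was so on 5 arrays and KRT78 on 1.

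The other unread stratified keratins were KRT2, KRT4, KRT10 and KRT80; KRT4 belongs to the suprabasal layers of moist squamous epithelia and KRT10 to those of skin. With KRT14, their levels lay between −8.21 and −5.60. KRT3, a corneal keratin, stood at −1.82, −1.66, −0.74 and −2.61 at 0 g and −2.11, −1.93, −2.59 and −2.03 at 4 g. KRT75, a keratin of the hair follicle sheath, stood at −2.22, −1.70, −1.49 and −2.85 at 0 g and −2.49, −2.28, −2.84 and −1.86 at 4 g. Both were highest on the 0 g array of animal 23.

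Hair keratins, which build the hair shaft and its sheath, were mostly unread: 13 of 21 on no array, 4 on some and 4 on all. KRT81 stood at 2.19, 1.89, 2.20 and 1.48 at 0 g and 1.51, 1.76, 1.43 and 2.02 at 4 g. KRT35 stood at −1.51, −1.22, −1.86 and −2.58 at 0 g and −1.30, −1.89, −2.68 and −1.79 at 4 g. The doses overlapped for both, over a range of 0.78 units for KRT81 and 1.45 for KRT35.

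KRT85 stood at −2.85, −2.85, −2.77 and −3.32 at 0 g and −2.58, −3.24, −2.81 and −2.98 at 4 g. KRT86 stood at −2.94, −3.00, −2.57 and −2.96 at 0 g and −3.15, −2.80, −3.22 and −3.40 at 4 g. Both stayed within 1 log2 unit. KRT79, a keratin of sebaceous ducts in skin, had the narrowest range of the members read on every array, 0.58, at 1.96, 1.98, 1.82 and 1.40 at 0 g and 1.77, 1.80, 1.41 and 1.96 at 4 g. Among the 18 members read on all arrays, 7 (38.9%) ranged over less than 1 unit, against 40.9% of all probes so read.

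The remaining keratins were KRT9, KRT12, KRT23 and KRT222. KRT12 and KRT23 were read on no array, KRT9 on 4 and KRT222 on 5.

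Position along the chromosome and detection can be set side by side, since keratins lie in 2 blocks. On chromosome 5 the probes of 25 keratins, the type II genes and KRT18, span 736.8 kb (27172581 to 27909400), and 11 were read on every array and 8 on none. On chromosome 19 those of 22 type I keratins span 959.1 kb (41515538 to 42474594), and 2, KRT19 and KRT35, were read on every array and 13 on none. The 7 desmosomal cadherins span 532.7 kb of chromosome 24 (25915345 to 26448029), with 2 read on every array and 5 on none.

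The desmosomal cadherins split by isoform. DSG2 and DSC2, the forms found in simple as well as layered epithelia, were well above background on all 8 arrays, while DSG1, DSG3, DSG4, DSC1 and DSC3, which belong to stratified epithelia, were on none, with levels between −8.41 and −5.36. DSG2 stood at −2.52, −2.42, −2.51 and −2.45 at 0 g and at −2.50, −2.83, −3.22 and −2.91 at 4 g. DSC2 stood at 1.70, 1.04, 1.77 and 1.5 at 0 g and 1.6, 1.62, 1.90 and 2.57 at 4 g. DSG2 was lower at 4 g in 3 of 4 animals and DSC2 higher in 3 of 4, with the groups overlapping for both.

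Of 6 plaque genes, 3 were read on all arrays and none was unread throughout. DSP encodes desmoplakin, which anchors the filaments, and stood at −3.10, −2.52, −2.53 and −2.52 at 0 g and −3.13, −3.17, −3.30 and −3.36 at 4 g. Every 4 g array lay below every 0 g array, though in animal 19 by 0.04 alone, because its 0 g array lay near the 4 g arrays. JUP, plakoglobin, which links cadherins to desmoplakin, stood at −4.91, −4.37, −4.68 and −5.47 at 0 g and −4.29, −4.94, −5.81 and −4.86 at 4 g. PKP4, a relative of the plakophilins also found at other junctions, stood at −4.94, −3.96, −4.09 and −4.88 at 0 g and −3.58, −4.51, −5.26 and −4.86 at 4 g. Both groups overlapped for JUP and for PKP4.

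The plakophilins differed in how often they were read. PKP2, the form of simple epithelia and heart, was well above background on 6 arrays, all but the 2 dim ones, at −4.91, −5.50, −5.41 and −5.66 at 0 g and −4.97, −4.84, −5.00 and −4.98 at 4 g. PKP1, the form of stratified epithelia, was well above background on the 0 g array of animal 19 alone, at −5.02, with −6.62, −7.88 and −8.07 on the other 0 g arrays and −6.80, −6.26, −7.77 and −6.85 at 4 g. The PKP1 level on the 0 g array of animal 19 lay above the others by 1.24 units, but their backgrounds leave no bound on the fold. PKP3 was read on 3 arrays.

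TP63, whose product p63 keeps the basal layer of squamous epithelia, was not well above background on any array. Its levels were −7.72, −6.67, −7.91 and −8.11 at 0 g and −6.85, −7.60, −8.07 and −7.56 at 4 g. The highest 2 were on the dim arrays. LOR, loricrin, was likewise on none (−8.19 to −6.73). No array of another tissue was at hand to show that these probes read their genes when they are expressed, and of 30 hepatocyte genes 2, APOC3 and AMBP, both plasma protein genes of liver, also fell on no array; a probe that is not well above background is therefore not evidence of absence.

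A handful of squamous genes stood out on 1 array. On the 0 g array of animal 19, 9 members lay at least 1 log2 unit above their level on every other array, among the 32 members well above background there (28.1%), against 43 of 11157 probes (0.385%) on that array as a whole. They were KRT6A, KRT6B, KRT6C and KRT17, keratins of stressed, wounded and upper squamous layers, the plaque gene PKP1, the cornified genes IVL and A2ML1, and the connexins GJB2 and GJB6. For 5 of them (KRT6A, KRT6B, KRT6C, A2ML1 and GJB6) the gap was at least 2 units. Of the 9, 5 were well above background on no other array. The members were chosen with earlier results of these data known, so the 2 shares are a description. This is 1 array, so no test of it was possible.

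KRT6B stood at 0.62, −3.41, −4.64 and −4.96 at 0 g and −2.51, −4.47, −5.11 and −4.59 at 4 g, and was well above background on all 8. KRT6C stood at −1.20, −6.80, −8.05 and −8.28 at 0 g and −4.46, −7.10, −8.27 and −7.75 at 4 g, and KRT6A at −2.44, −6.76, −7.27 and −8.25 at 0 g and −6.94, −7.68, −8.23 and −7.66 at 4 g. For KRT6B and KRT6C the next highest array was the 4 g array of the same animal. A bound on each gap takes, on each other array, the higher of the probe's own level and the lowest level well above background, and so measured KRT6B was at least 8.72-fold, KRT6C at least 9.60-fold and KRT6A at least 4.56-fold above any other array. The probes of the 3 genes lie within 35.8 kb of chromosome 5 (27563878 to 27599652), between those of KRT5 and KRT75, neither of which stood apart on that array.

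A2ML1, a protease inhibitor of the upper epidermis, stood at −0.59, −6.73, −7.93 and −7.81 at 0 g and −5.26, −7.71, −8.20 and −7.62 at 4 g. It was well above background on the 0 g array of animal 19 alone, at least 16.48-fold above any other array, the widest bound of the members. KRT17 was read there alone too, at −4.86, with −6.87, −6.06 and −8.30 on the other 0 g arrays and −7.07, −7.83, −7.86 and −7.76 at 4 g. Its level lay above the others by 1.20 units, but their backgrounds leave no bound on the fold.

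IVL, involucrin, was well above background on 7 arrays, at −3.16, −4.44, −4.62 and −5.56 at 0 g and −4.92, −5.21, −5.54 and −5.23 at 4 g. It was at least 2.42-fold above any other array in the 0 g sample of animal 19. GJB2, connexin 26, which hepatocytes also carry, stood at −2.85, −4.44, −4.38 and −5.28 at 0 g and −4.26, −5.57, −5.49 and −4.85 at 4 g. GJB6, connexin 30 of skin and inner ear, lies beside it, the 2 probes falling within 23.0 kb of chromosome 12, and stood at −2.53, −6.73, −6.46 and −7.17 at 0 g and −6.93, −6.07, −8.29 and −7.79 at 4 g. The bounds were 2.65-fold for GJB2 and 4.30-fold for GJB6, so both neighbours were highest on the same array.

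**Figure D3:**
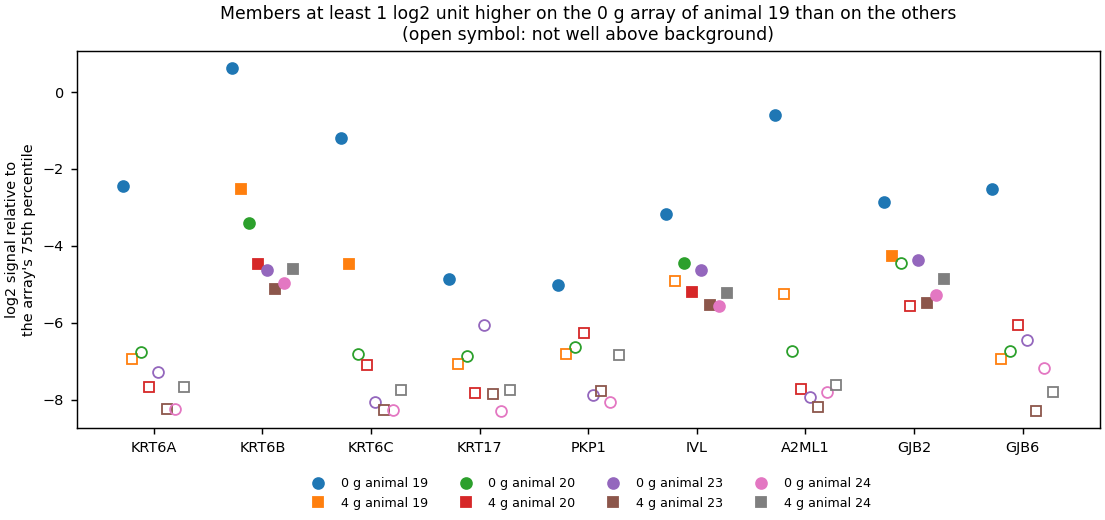
Level (log2 signal relative to the array's 75th percentile, y axis) of the 9 members that lay at least 1 unit higher on the 0 g array of animal 19 than on any other, by gene (x axis). Circles are 0 g and squares 4 g arrays, coloured by array, and open symbols are not well above background. The blue circle tops every column, from 0.62 for KRT6B to −5.02 for PKP1.

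Of 30 markers of rumen epithelium other than the members, 20 were well above background on the 0 g array of animal 19. The count was 19 on the 0 g array of animal 23 and 13 to 17 on the others. Of the 30, 13 were read on all arrays and 6 on none. Their mean level ranged from −4.43 to −3.28 over the 0 g arrays and from −4.27 to −3.52 over the 4 g arrays. It was highest on the 0 g array of animal 23, where KLK12 stood at 5.68 with −2.23 next. On the 0 g array of animal 19 the mean was −3.33. Of these 30, 3 stood at least 1 unit above every other array on it: CA1, a carbonic anhydrase found in rumen epithelium, at −0.51 with −3.95 next, SLC26A3, an anion exchanger, at −3.91 with −5.81 next, and BDH1, a ketone body enzyme, at −4.67 with −6.02 next. The 10 genes outside the members with the widest gap on that array were, in order, SERPINB4, a squamous cell carcinoma antigen gene (−1.12 with −5.53 next), CA1, COL2A1, BNC1, ABCA13, PTH2R, PHGR1, GALR2, PADI6 and BARHL1, of which COL2A1, a cartilage collagen (−3.70 with −6.86 next), and BNC1 of the mesothelium list (−3.77 with −6.82 next) had gaps of 3.16 and 3.05. Beyond the members, the cornified envelope list held 22 genes and the squamous transcription factor list 18. Both lists were read most on the 0 g array of animal 23, at 14 and 13 genes, against 13 and 11 on the 0 g array of animal 19. Of these listed genes, 0 stood at least 1 unit above the other arrays on the 0 g array of animal 19. BNC1 and SERPINB4 are on neither list, so that count does not cover them. A place on the mesothelium list does not make BNC1 particular to mesothelium. Whether RNA of another tissue has a part in these readings was not tested. Of basal and suprabasal genes, KRT14, KRT4, TP63, DSG1, DSG3 and DSC3 were not well above background on that array. KRT5 was read there, at −4.14, as on all 8 arrays. The stratified keratins KRT15 (−4.02) and KRT76 (−5.00) and the suprabasal gene SBSN (−4.27) were read there too. KRT14 (−5.82) and DSG3 (−5.36), though unread, had their highest level on it.

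Single members stood apart on other arrays. SBSN, suprabasin, a secreted protein of suprabasal layers, stood at −4.27, −4.80, −5.13 and −5.70 at 0 g and −2.50, −4.97, −4.98 and −3.72 at 4 g, highest on the 4 g array of animal 19 by at least 2.33-fold. KRT24 was read on the 0 g array of animal 20 alone, at −3.59, with −5.96, −6.36 and −6.74 on the other 0 g arrays and −5.89, −5.44, −6.15 and −7.04 at 4 g. KRT73, a hair sheath keratin, was read on the 0 g array of animal 23 alone, at −4.23, with −5.96, −5.94 and −6.44 on the other 0 g arrays and −5.51, −5.82, −7.02 and −6.03 at 4 g. That last array also carried pancreatic acinar genes: all 19 of that list were well above background, with a mean level of 6.91 against −5.24 to −3.38 on the other arrays. On the 4 g array of animal 23, 16 of the list were read. Animal 24 had 15 at 0 g and 11 at 4 g, and each array of animals 19 and 20 had 6. The part of pancreatic acinar cells in the KRT73 reading was not tested.

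Set against the tissue names, the hepatocyte list was read in full on every array but for the 2 genes named above: 28 of 30 genes on each of the 8 arrays, with mean levels of 4.16 to 4.65 at 0 g and 4.31 to 4.59 at 4 g. The bile duct list beyond KRT7 and KRT19 was read at 9 to 10 of 11 genes, among them EPCAM (0.09 to 2.78) and SPP1 (−4.53 to −1.76). The cornified envelope list beyond the members gave 8 to 14 of 22, with 6 on no array, and squamous transcription factors beyond TP63 9 to 13 of 18, with 5 on none. Other junction and hemidesmosome genes gave 19 to 21 of 23, mesothelium 4 to 5 of 9 and smooth muscle 4 to 8 of 8. Among the members, KRT7, KRT8, KRT18, KRT19, DSG2 and DSC2 were thus read on every array, and KRT20, TP63, KRT14, KRT4, DSG1, DSG3, DSC1, DSC3 and LOR on none, on arrays whose hepatocyte genes were present throughout. KRT5, KRT3, KRT75 and KRT6B, keratins of stratified epithelia, were nevertheless read on all 8, and KRT15, another of them, on 7. In bulk tissue, fewer cells of a type and less RNA per cell cannot be told apart.

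For the antibody dose, no difference among these genes passed the test. Of the 67 members 27 were well above background on at least 4 arrays and could be tested, and limma, with the animal as a block, called 0 of them, as it called 0 of 10985 probes in all (0%) at an adjusted p of 0.05. At an unadjusted p under 0.05 it gave 0 members and 121 probes (1.1%). At 4 g, 8 members were higher and 19 lower, with a median log2 difference of −0.16 and a range of −1.07 to 0.93, while of all tested probes 5890 were higher and 5095 lower, with a median of 0.02. None of the lists named above had a called gene. By animal the members' median difference was −0.04, −0.45, −0.77 and 0.43, so the animals did not share a direction.

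The 5 members with the smallest unadjusted p were DSP, GJB2, SBSN, IVL and KRT6B, in that order, whose levels are given above. DSP was lower at 4 g by a log2 difference of −0.57 (SE 0.25, 95% interval −1.17 to 0.02, limma adjusted p = 1.00), with means of −2.67 ± 0.29 at 0 g and −3.24 ± 0.11 at 4 g (SD, n = 4). It was the 1 member of the 27 whose groups did not overlap, beside 67 of 10985 probes (0.61%), and it was lower in 4 of 4 animals. In animals 19 and 20 alone the difference was −0.34, and in animals 23 and 24 alone −0.81. With normexp background correction it was −0.27.

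GJB2 differed by −0.81 (SE 0.36) and IVL by −0.78 (SE 0.36), each lower in 3 of 4 animals. KRT6B differed by −1.07 (SE 0.55), of which animal 19 gave −3.12 and the other animals −1.05, −0.47 and 0.37. All 3 had a limma adjusted p of 1.00. These 3 are among the genes that stood apart on the 0 g array of animal 19, and in animals 23 and 24 alone their differences were −0.34, −0.29 and −0.05, against −1.27, −1.26 and −2.09 in animals 19 and 20 alone. Without that array, in a fit with no block, KRT6B turned to 0.17, GJB2 was −0.34 and IVL −0.35. With normexp they were −0.25, −0.12 and −0.14.

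SBSN differed the other way, by 0.93 (SE 0.43, limma adjusted p = 1.00), higher in 3 of 4 animals. The positive differences lay mainly in animals 19 (1.77) and 24 (1.98), with −0.17 and 0.15 in the others. With normexp the SBSN difference was 0.05, and without animal 24 it was 0.58. The simple keratins showed no shared direction: KRT18 0.24 (95% interval −0.54 to 1.03), KRT8 0.01 (−0.58 to 0.61), KRT19 −0.16 (−1.15 to 0.84) and KRT7 −0.32 (−1.07 to 0.44). The number of animals, 4, limits the precision.

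**Figure D4:**
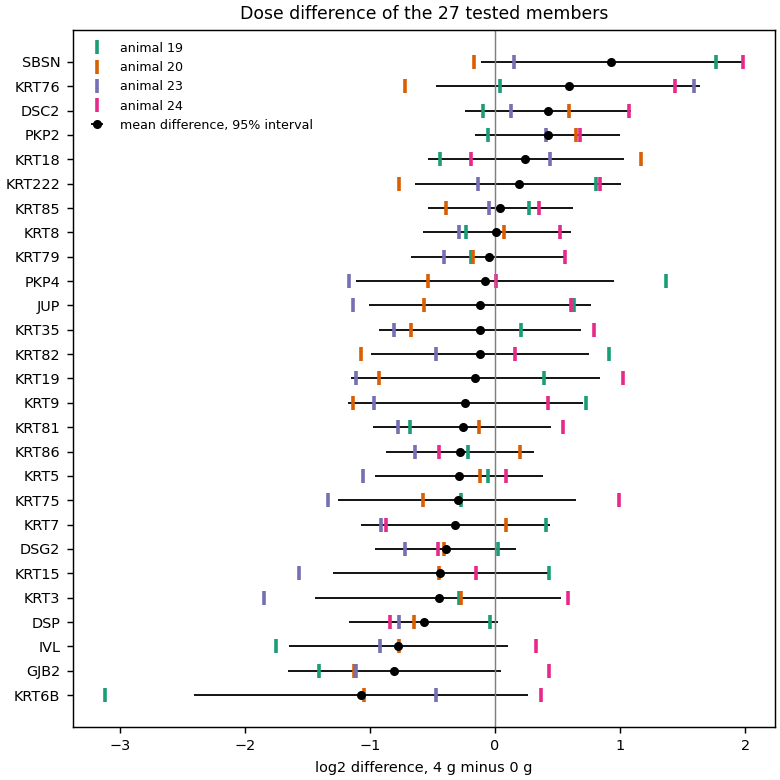
Log2 difference between 4 g and 0 g (x axis) for each of the 27 tested members (y axis), sorted by the mean difference. Black points are the limma estimate with its 95% interval, and coloured ticks are the 4 animals. Every interval includes 0, and the tick of animal 19 for KRT6B lies at −3.12.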

How the data were processed

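The members and gene lists were chosen with earlier results of these data known. Per the file headers, the deposited spot intensity values are the processed signal of Agilent Feature Extraction 11.0.1.1 (9.5 in the submitters' processing notes), a linear, background-subtracted spot brightness that is not scaled across arrays. The mean spot and local background intensity were deposited beside it. The authors' series table holds log2 values that matched the levels used here at r = 1.00, with column medians of −3.08 to −2.86.

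From each array's 15646 features 536 controls and, over all arrays, 48 outlier spots were left out; no spot was saturated. Log2 processed signals were averaged per probe and the array's 75th percentile subtracted. Names of 11194 probes came from accessions in RefSeq (assembly ARS-UCD2.0, names only), 3085 from current symbols, 38 from synonyms, and 691 kept the file's name; members were matched on the file's name. The dose fit used limma 3.58.1 (R 4.3.3, with the data.table package, version 1.17.8; lmFit, eBayes, animal as a block, two-sided, Benjamini-Hochberg over all probes well above background on at least 4 arrays), tested on simulated data first. The pairing comes from the animal numbers in the labels; deviations from the group means correlated within animals at −0.19, −0.18, 0.21 and 0.13. All arrays came from 1 slide and 1 scan, with animals 19 and 20 in one row and 23 and 24 in the other, which is the split given beside the dose values. Values on all arrays are given for members read on every array, members at least 1 unit above the other arrays on 1 array, the 5 with the smallest p and a fixed set of markers. Alternatives were another background correction, quantile scaling, other filters, the authors' values, no block, left-out animals and arrays, another variance model and array weights.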

Additional observations from a re-analysis of the deposited data

Results flagged for a closer look

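Of 60 groups of 4 arrays (30 members, each dose apart), 6 held 1 array far from the other 3. Chance flags about 1 in 20 groups of unselected genes, but the 30 include genes named because 1 array stood apart, so the count is a description and cannot be read against that rate. On the 0 g array of animal 19 these were A2ML1 at −0.59 (others −7.93 to −6.73), GJB6 at −2.53 (others −7.17 to −6.46) and DSP at −3.10 (others −2.53 to −2.52). DSP differed from the other 2 in that its level there was low. KRT85 was low on the 0 g array of animal 24 at −3.32 (others −2.85 to −2.77), and KRT86 high on the 0 g array of animal 23 at −2.57 (others −3.00 to −2.94). KRT17 on the 4 g array of animal 19 stood at −7.07 (others −7.86 to −7.76), where it was not well above background on an array that reads background high.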

How the results depend on the processing

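Under all 16 alternatives of the dose fit limma called 0 probes and 0 members; unadjusted counts ran from 16 to 454 probes and 0 to 3 members. The members' median difference ran from −0.36 to 0.05 with 1 animal left out at a time (0.05 without animal 23), where the probes called stayed at 0. Without the replicate block it was again −0.16, which the design fixes, since each animal has 1 array at each dose. The members called were 0 in both fits, as were the probes called, so these counts cannot show what the block does. Of 348 values of 22 named members 0 were called and 29 turned sign, in 13 members. With the looser flag for a positive and significant spot in place of well above background, 53, 39, 54 and 41 members were read on the 0 g arrays of animals 19, 20, 23 and 24, and 47, 50, 48 and 47 on their 4 g arrays. Normexp correction used an offset of 50, which compresses low signals. With it 1 member instead of 12 stood at least 1 unit above the other arrays on a single array. This was KRT6B, at 0.28 with −0.85 next, so 1 instead of 9 stood apart on the 0 g array of animal 19. All 9 remained highest there, by 0.28 to 1.14 units. With normexp, however, 34 of 39 members instead of 11 were highest on that array, so this adds little for the 9. In the main setting 10.6% of the 12591 probes read on at least 1 array were highest there. The share of all probes with normexp was not taken, and the cause was not tested. With a gap of 2 units in place of 1, 5 members stood apart on a single array, all 5 on the 0 g array of animal 19. Quantile scaling and the authors' values left these counts at 12, 9 and 11. Signal over background limits what can be said of the 28 members read on no array, and 4 animals limit the dose comparison.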
